A study of Mus musculus with 61 samples.

Results

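Potassium channels let potassium leave a neuron and so set its resting potential, the shape of its action potentials and its firing rate. The genes described here are the protein-coding mouse genes whose symbol begins with Kcn, leaving out those that begin with Kcnd, Kcnip or Kcnj. They number 72 among the 55401 gene identifiers in the count table. They cover the voltage-gated Kv1, Kv2, Kv3, Kv7 and Kv10 to Kv12 channels, the silent Kv subunits, the channels opened by calcium or sodium, the tandem-pore (K2P) leak channels and the auxiliary subunits. The symbol alone chose them, and no measured value did. A further 4 genes with such symbols were not protein-coding and were left out.

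Total RNA was sequenced from sorted nuclei of the nucleus accumbens, the ventral striatum, of male mice. The mice carried eGFP-tagged ribosomal protein L10a behind a stop cassette, which Cre from a Drd1 or a Drd2 driver removes, so that the label marks the D1 or D2 class as the driver defines it. Saline or morphine was given daily for 15 days, 30 days in the home cage followed, and tissue was taken 1 h after a last injection, the challenge, of saline or morphine. The first letter of a group gives the repeated treatment and the second the challenge: SS is saline then saline, SM saline then morphine, MS morphine then saline, and MM morphine then morphine. The 61 libraries fell into 8 SS, 8 SM, 9 MS and 7 MM libraries from D1 nuclei, and 7 SS, 7 SM, 8 MS and 7 MM libraries from D2 nuclei. The labels' protocols list more than 1 morphine dose without assigning them to mice, and do not say how many animals a library holds, so p-values measure the spread between these libraries.

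Total counts per library ranged from 11518606 to 26108954, with a median of 17924400. The driver genes followed the sort labels, with log2 differences between D2 and D1 nuclei of 3.31 ± 0.17 for Drd2 and -2.67 ± 0.18 for Drd1 (adjusted p = 1.59e-22 and 2.77e-17 in edgeR's quasi-likelihood test with Benjamini-Hochberg adjustment). Of the D1 class markers 6 of 9 stood at 2 times background or more, a level defined in the next sentences, and of the D2 class markers 5 of 9. In every library, reads also lay on 1466 olfactory and vomeronasal receptor genes, known as genes of sensory neurons in the nose. The count density over the spans of these receptor genes, in CPM (counts scaled to a common library total) per kilobase, served as a background. Spread over the summed length of all genes, this density came to 61.5% ± 14.0 of counts (SD, n = 61), with a range from 7.46% to 86.3%. The library D1 SS replicate 1 lay at 7.46%, and the next lowest library lay at 33.1%. Its TMM scaling factor was 0.388, against 0.812 or more in the other libraries, and results that rest on it are given with and without it. Over the 61 libraries, the median of every marker of cortical neurons, microglia and endothelial cells was under 2 times background. Of the oligodendrocyte and astrocyte markers, only Mbp (2.06 times) and Aldoc (2.49 times) had a median above it. Single libraries went higher, with the highest value of each cortical marker between 4.53 (Rorb) and 202 times (Slc17a7).

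In such bulk libraries fewer nuclei of a type and less RNA per nucleus cannot be told apart. Each member is first given as its level in times background, that is, its CPM per kilobase of gene span divided by the receptor-gene density of the same library. A value of 1 is therefore what reads as dense as over the receptor genes would give. Marker lists of other cells lay higher. Their median levels ran from 1.29 for oligodendrocytes over 1.37 for astrocytes, 1.43 for microglia and 1.47 for endothelial cells to 1.497 for cortical neurons. Levels in this range are therefore not read as above background. Of the 72 members, 26 (36.1%) had a median of 2 times background or more over the 61 libraries, 25 lay under 1.5 times and 6 under 1. The median member was at 1.63 times background. Among the other protein-coding genes, 5204 of 21825 (23.8%) reached 2 times background, with a median of 1.54.

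**Figure D1:**
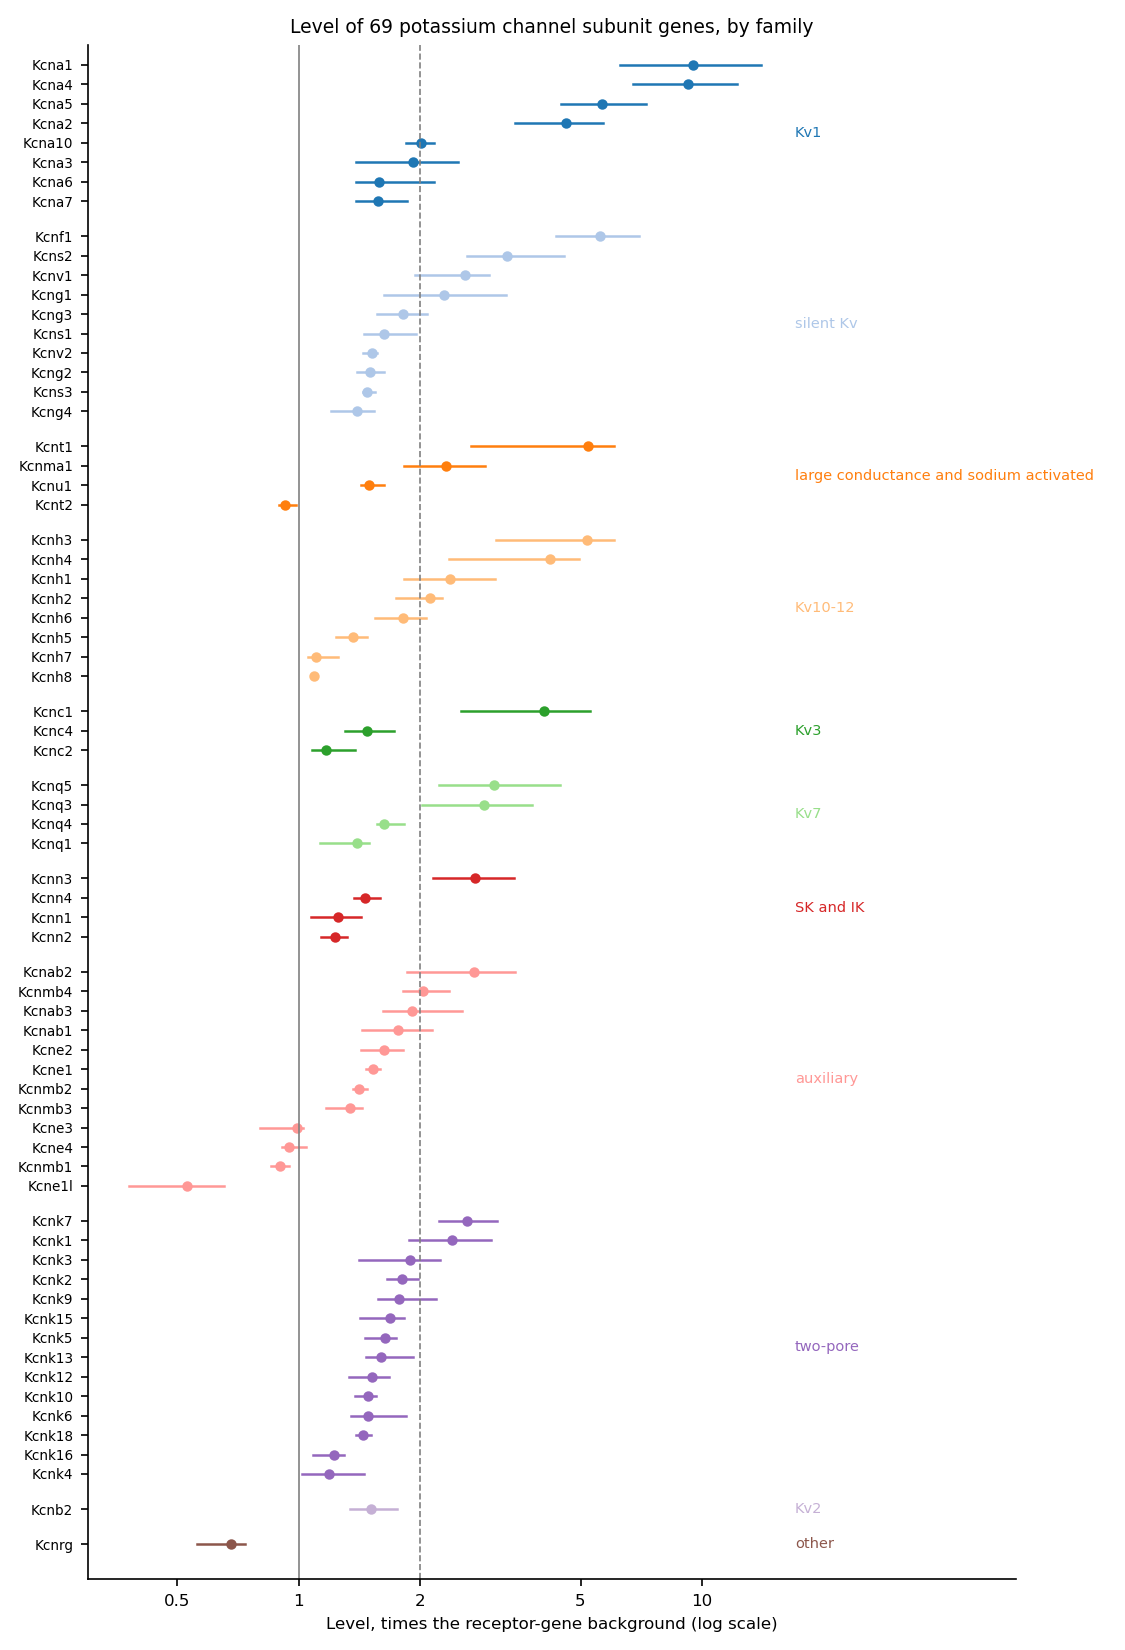
Level of 69 of the 72 members in times the receptor-gene background, on a log axis, grouped by family. Points are medians over 61 libraries, and lines run from the lowest to the highest of the 8 group medians; the solid line marks 1 and the dashed line 2 times background. Kcna1 and Kcna4 lie furthest to the right, near 9 times background, and Kcne1l furthest to the left at 0.53.

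By count per kilobase of gene span, the Kv1 family had the most strongly represented members. Dividing by the whole span ranks genes otherwise than counts alone do. In D1 nuclei the median TMM-scaled CPM was 27.9 for Kcna1, against 779 for Kcnma1 and 875 for Kcnq5. Kv1 channels open at low voltage and restrain spike initiation and transmitter release along axons. Kcna1, which encodes Kv1.1 (chr6:126640397-126646384, minus strand, mm10), stood at 9.51 times background over 61 libraries, from 2.95 to 205, with 570 counts per library on average. Kcna4, which encodes the fast-inactivating Kv1.4 (chr2:107290639-107298502, plus strand), stood at 9.23 times, from 3.35 to 181. The highest of these values was that of D1 SS replicate 1 for each gene. Kcna5 (Kv1.5) followed at 5.65 times and Kcna2 (Kv1.2) at 4.61 times. Kcna10 was at 2.01 times, just inside the limit of 2, while Kcna3 (Kv1.3) was just outside it at 1.92, and Kcna6 (Kv1.6) and Kcna7 were at 1.58 and 1.57.

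The Kcna1 level varied from group to group. Its group medians in D1 nuclei were 8.94 times background in SS, 12.2 in SM, 9.11 in MS and 14.0 in MM. In D2 nuclei they were 6.27 in SS, 7.21 in SM, 11.6 in MS and 11.8 in MM. The ranges of the D1 and D2 libraries overlapped. Kcna4 ran from 6.74 in D2 SS to 12.2 in D2 MS by group median. Several Kv1 genes are neighbours on the genome. On chromosome 6, Kcna5, Kcna1 and Kcna6 lie within 500 kb of each other at 5.65, 9.51 and 1.58 times background. On chromosome 3, Kcna3, Kcna2, Kcna10 and Kcnc4 do so at 1.92, 4.61, 2.01 and 1.48 times, so neighbours in a cluster stood at unlike levels.

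In the Kv7 family, whose members carry the slow M-current that muscarinic receptors close, 3 of 5 reached 2 times background. Kcnq5 (chr1:21398403-21961942, minus strand) stood at 3.05 times, from 1.42 to 60.3 over 61 libraries, and passed 2 times in 52 of them. Kcnq3 stood at 2.88 times, while Kcnq1, the cardiac and epithelial member, stood at 1.39.

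Kv3 channels close quickly and allow fast spiking. Kcnc1 (Kv3.1) stood at 4.06 times background, and Kcnc4 and Kcnc2 at 1.48 and 1.17. In the Kv2 family of delayed rectifiers, Kcnb2 stood at 1.51 times. Of the 10 silent subunits, which form channels only together with Kv2 subunits, 4 reached 2 times background. Kcnf1 led them with 5.60 times, and Kcns2, Kcnv1 and Kcng1 followed at 3.29, 2.59 and 2.29. Kcnf1 passed 2 times background in all 61 libraries and Kcns2 in 57.

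Of the 8 genes of the ether-a-go-go family, 4 reached 2 times background. Kcnh3 and Kcnh4, which encode Kv12.2 and Kv12.3 and are known chiefly from the forebrain, stood at 5.18 and 4.21 times. Kcnh1 stood at 2.38 and Kcnh2, the gene of the cardiac hERG channel, at 2.11. Kcnh7 and Kcnh8 lay at 1.10 and 1.09, next to the background. Kcnh1, Kcnh3 and Kcnh7 each overlap another protein-coding gene, so their counts may be shared with it.

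Among channels gated by intracellular ions, the sodium-activated Kcnt1 (Slack) stood at 5.23 times background and its relative Kcnt2 at 0.93. The large-conductance calcium-activated channel gene Kcnma1 (BK) stood at 2.32 times, from 1.35 to 49.9, and Kcnu1, a BK relative known from sperm, at 1.49. Kcnn3 (SK3) was the only small- or intermediate-conductance gene past 2 times, at 2.73, against 1.46 for Kcnn4.

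The K2P leak channels and the auxiliary subunits were mostly near the background. Of 14 K2P genes, 2 reached 2 times background: Kcnk7 at 2.62 and Kcnk1 (TWIK-1) at 2.40. Kcnk3 and Kcnk9, which encode the acid-sensitive TASK-1 and TASK-3, were just under at 1.89 and 1.77, and Kcnk2, the mechanosensitive TREK-1, was at 1.80. Of 12 auxiliary genes, Kcnab2 (the Kv1 beta subunit Kvβ2) and Kcnmb4 (a neuronal BK beta subunit) reached 2 times, at 2.71 and 2.03. The lowest levels belonged to Kcnmb1, Kcnrg and Kcne1l, at 0.90, 0.68 and 0.53 times background. Kcne1l had only 7.43 counts per library on average, and it alone did not pass the low-count filter in D2 nuclei. Kcnab2, Kcnmb1 and Kcnk4 also overlap another protein-coding gene, so their counts may be shared with it.

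Each level in times background is divided by the receptor-gene density that also gives the background share. The number of members at 2 times background or more is thus tied to that share by construction, and it differed between groups. It was 26 in SS, 26 in SM, 23 in MS and 34 in MM for D1 nuclei, and 21, 17, 27 and 27 in the same order for D2 nuclei. The background share averaged 58.1% ± 24.4, 60.9% ± 16.3, 63.3% ± 11.4 and 53.9% ± 9.75 in these D1 groups (SD, n = 8, 8, 9 and 7). In the D2 groups it averaged 67.0% ± 6.52, 70.3% ± 9.51, 57.0% ± 9.47 and 62.0% ± 14.9 (SD, n = 7, 7, 8 and 7). The 26 higher members summed to a median of 3219 CPM in D2 SM, the group with the highest mean background, and to 4318 CPM in D1 MM, the group with the lowest.

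**Figure D2:**
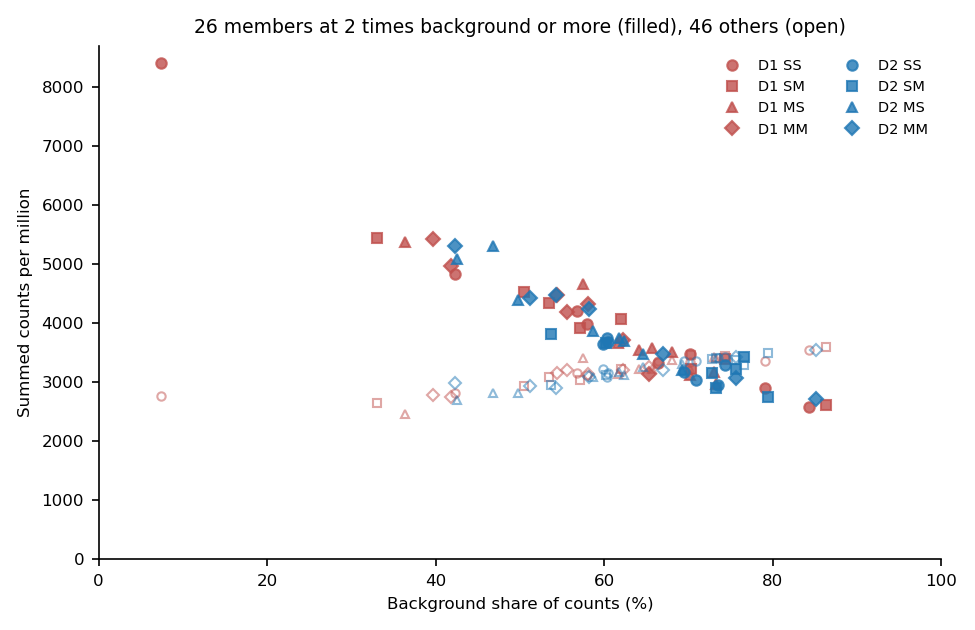
Summed CPM of the 26 members at 2 times background or more (filled) and of the 46 others (open) in each library, against the background share of its counts in percent. Colours give the cell type, red for D1 and blue for D2, and shapes the treatment. The filled symbols lie lower towards the right; the lone point at the left is D1 SS replicate 1, with 8400 CPM at a background share of 7.46%.

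Levels were also computed with the receptor-gene density taken out. It was subtracted from each member's CPM per kilobase, and the rest was divided by the share of counts that was not background. For genes near the background this may leave a remainder that varies with the background share. On this scale Kcna1 was 11.7 ± 2.42 CPM per kb in D1 nuclei (SD, n = 32) and 11.3 ± 2.78 in D2 nuclei (SD, n = 29). Kcna4 was 11.4 ± 2.01 in D1 and 11.5 ± 2.37 in D2 nuclei. For both genes the cell types thus differed by less than the spread between libraries.

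The D1 and D2 classes were compared over all 4 treatments with equal weight. No member passed the test with all libraries: 0 of 72 had an adjusted p under 0.05, where 0.301% of all 42870 genes tested did (129 genes, 38 higher and 91 lower in D2) in edgeR's quasi-likelihood test with Benjamini-Hochberg adjustment. An unadjusted p under 0.05 was reached by 27 of 72 members (37.5%) and by 12.2% of all genes, and without D1 SS replicate 1 by 13 members and 6.81%. The 26 members at 2 times background or more were all lower in D2, with a median log2 difference of -0.31. Of the 5191 other protein-coding genes at that level, 6.88% were higher in D2 and their median was -0.22, so most genes of that level lay lower in D2 as well. Among the 46 members under 2 times background, 24 were higher and the median was 0.00. With the log2 background density as a covariate, 10 of the 26 higher members were above 0 and their median was -0.01.

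The 5 smallest p-values came from Kcnk13, Kcna6, Kcnk9, Kcng1 and Kcnf1. Kcnk13 encodes THIK-1, a leak channel; Kcng1 and Kcnf1 encode silent subunits. In D2 against D1 nuclei their log2 differences were -0.18 ± 0.05, -0.38 ± 0.11, -0.31 ± 0.09, -0.29 ± 0.09 and -0.43 ± 0.15, with adjusted p from 0.0708 for Kcnk13 to 0.341 for Kcnf1 in edgeR's quasi-likelihood test. None of them passed.

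A few members passed once D1 SS replicate 1 was left out or the background was modelled. Without that library, 4 of 72 members passed at an adjusted p under 0.05, against 0.376% of all genes: Kcnk9, Kcnk13 and Kcna6 were lower in D2 and Kcnk2 was higher. Their log2 differences were -0.17 ± 0.03, -0.14 ± 0.03, -0.23 ± 0.05 and 0.12 ± 0.03, with edgeR adjusted p of 0.000818, 0.00133, 0.0219 and 0.0429. With the background covariate and all libraries, 3 passed, against 0.597% of all genes. Kcnk2 was then higher by 0.15 ± 0.02 (edgeR adjusted p = 4.95e-06), Kcna6 lower with -0.16 ± 0.03 (0.000191) and Kcnk13 lower with -0.13 ± 0.03 (0.0079), while Kcnk9 with -0.13 did not pass (0.311). With both changes together, Kcnc2 joined these 4 members at -0.11 (edgeR adjusted p = 0.0318), and 0.847% of all genes passed. Leaving out D1 MS replicate 2 as well kept Kcnk9, Kcnk13 and Kcna6, against 0.371% of all genes, and put Kcnk2 at an adjusted p of 0.0534. DESeq2 with all libraries called Kcnk9 and Kcna6, against 0.385% of all genes. In D1 SM against SS its values for both genes lay close to those without D1 SS replicate 1, as listed in the closing section. DESeq2 is therefore not an independent check on that library. Kcnk2 and Kcnc2 were singled out after these values were seen.

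**Figure D3:**
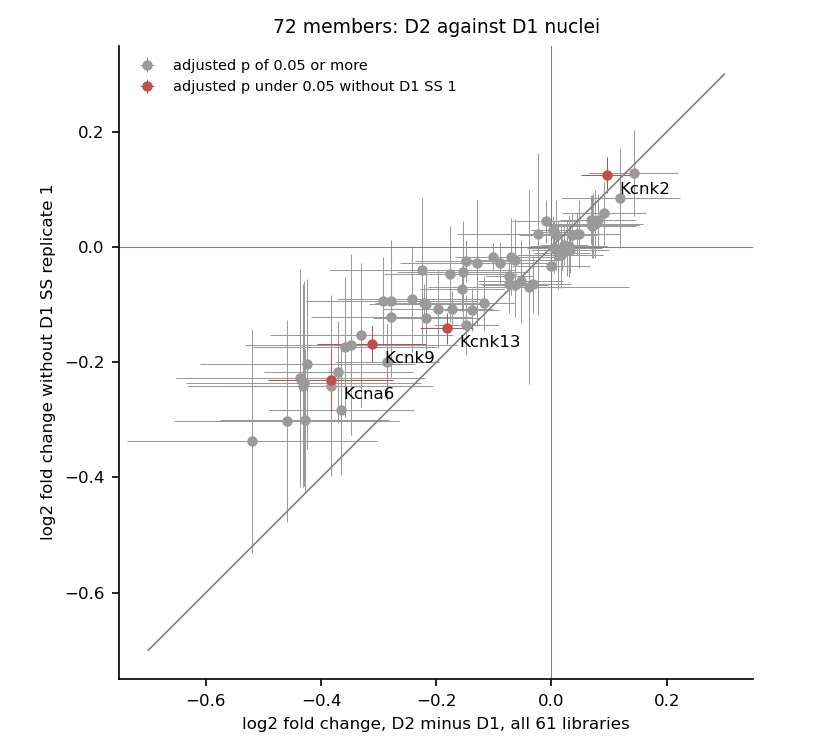
Log2 difference between D2 and D1 nuclei for 72 members, with all 61 libraries on the horizontal axis and without D1 SS replicate 1 on the vertical axis. Bars are standard errors, the diagonal marks equal values, and red points have an adjusted p under 0.05 without that library. Most points left of 0 lie above the diagonal, and Kcnk9, Kcnk13, Kcna6 and Kcnk2 are red.

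The libraries themselves show how small these differences are. Kcnk2 sets a leak current that stretch, warmth and lipids increase. Its background-subtracted level in D1 nuclei ran from 0.504 over a median of 0.894 to 1.75 CPM per kb, and in D2 nuclei from 0.93 over 1.16 to 1.57. All 29 D2 libraries lay above the D1 median, yet the ranges overlapped. By group, the medians were 0.884 in SS, 0.861 in SM, 1.01 in MS and 0.899 in MM for D1 nuclei. For D2 nuclei they were 1.27, 1.28, 1.06 and 1.06 in that order. On the TMM-scaled CPM scale, with no background removed, Kcnk2 had medians of 157 CPM in D1 and 167 CPM in D2.

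Kcna6 encodes Kv1.6, a subunit that joins other Kv1 subunits in axonal channels. Its background-subtracted level ran from 0.246 over 0.927 to 1.69 CPM per kb in D1 nuclei and from 0.166 over 0.653 to 0.939 in D2 nuclei. Of 29 D2 libraries, 28 lay below the D1 median, and the lowest was below every D1 library. The D1 medians were 0.866 in SS, 0.854 in SM, 0.921 in MS and 0.978 in MM, and the D2 medians 0.725, 0.599, 0.636 and 0.569, so the highest D2 group median was under the lowest D1 group median.

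The separation of the cell types depended on the scale. Kcnk13 had a background-subtracted level of 0.92 ± 0.237 CPM per kb in D1 nuclei and 0.771 ± 0.251 in D2 nuclei (SD over 32 and 29 libraries), with 21 of 29 D2 libraries below the D1 median. Its D2 medians were 0.875 in SS, 0.970 in SM, 0.591 in MS and 0.640 in MM. Kcnk9 had 1.22 ± 0.414 in D1 and 0.991 ± 0.31 in D2, with 23 of 29 D2 libraries below the D1 median. Its D2 medians were 1.13, 1.19, 0.806 and 0.675. On the TMM-scaled CPM scale, 28 of 29 D2 libraries lay below the D1 median for Kcnk13 and 29 of 29 for Kcnk9, with 11 of the latter below every D1 library. On that scale the counts were 27 of 29 below the D1 median for Kcna6 and 26 of 29 above it for Kcnk2. In times background, only 16 of 29 D2 libraries lay above the D1 median for Kcnk2, with medians of 1.75 in D1 and 1.86 in D2. Below the D1 median on that scale were 23 of 29 for Kcna6 and 24 of 29 each for Kcnk13 and Kcnk9. For Kcnk13 and Kcnk9 the D2 groups with repeated morphine were, by background-subtracted median, the lower ones, and no treatment comparison of either gene passed the test. Other members near the background, among them Kcnk10, Kcnk12 and Kcng2, had this order as well. The mean background share was 67.0% in D2 SS, 70.3% in SM, 57.0% in MS and 62.0% in MM, and its part in this order was not tested. No member had D1 and D2 libraries without overlap, on any of the 3 scales. The share over all genes is not given here, so this does not set the members apart from other genes.

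**Figure D4:**
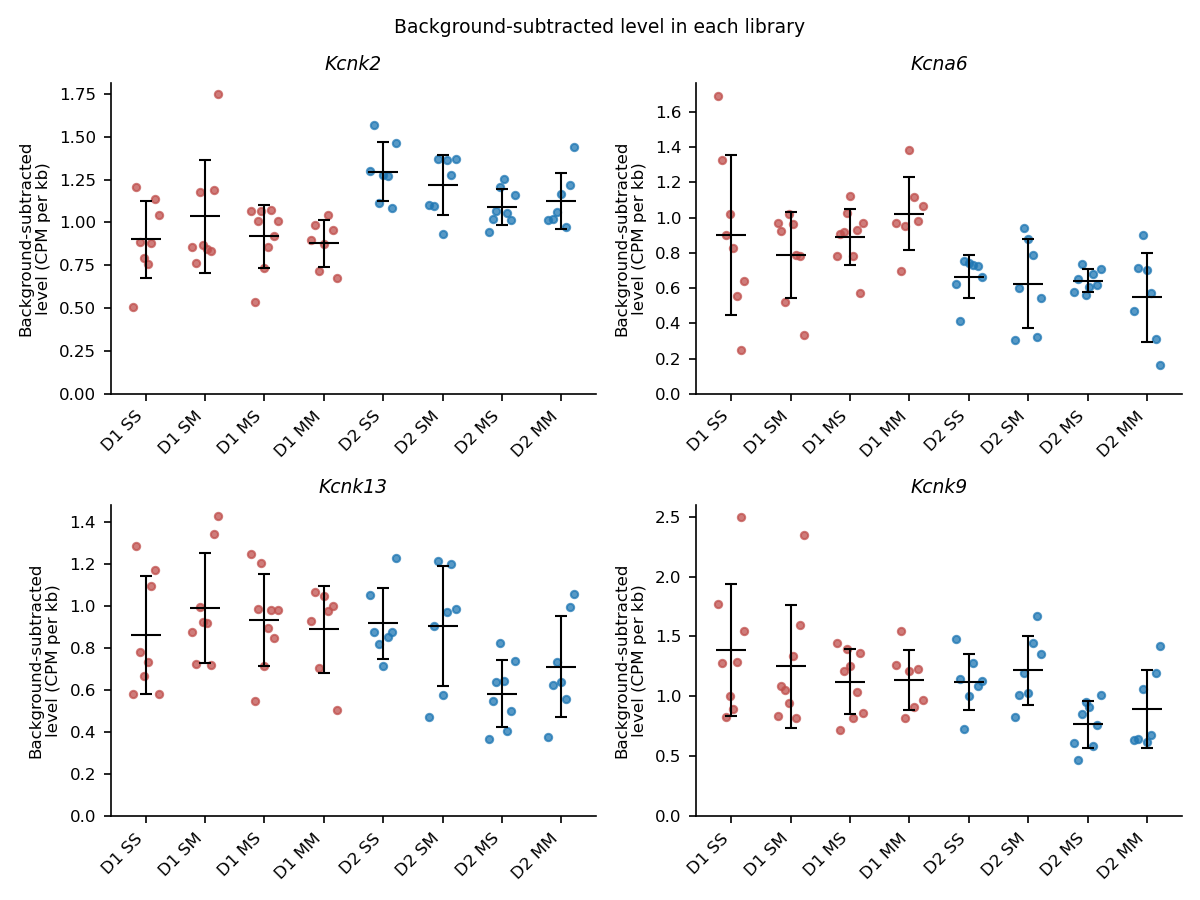
Background-subtracted level (CPM per kb of gene span) of Kcnk2, Kcna6, Kcnk13 and Kcnk9 in each library, by group. Points are libraries, red for D1 and blue for D2; the black bar is the mean and the whiskers 1 SD. Kcnk2 is higher and Kcna6 lower in most D2 libraries, with overlapping ranges.

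The 250 bases before the annotated start of 3 of these 4 genes are printed because these are members whose difference between the cell types passed in 3 or more of the fits; Kcnk9 had no entry, and Kcnc2, which passed in 1 fit, is not shown. The sequences come from RefSeq on GRCm38.p6, which held entries for 50 of the 72 members. Capitals mark the CRE core TGACG, the element bound by cAMP-responsive factors, searched on both strands (here it reads as its reverse complement). It occurs 1 time in Kcna6 and in neither of the others. Kcnk2 lies at chr1:189402274-189402523 on the minus strand, Kcna6 at chr6:126740675-126740924 on the minus strand and Kcnk13 at chr12:99964249-99964498 on the plus strand.
Kcnk2: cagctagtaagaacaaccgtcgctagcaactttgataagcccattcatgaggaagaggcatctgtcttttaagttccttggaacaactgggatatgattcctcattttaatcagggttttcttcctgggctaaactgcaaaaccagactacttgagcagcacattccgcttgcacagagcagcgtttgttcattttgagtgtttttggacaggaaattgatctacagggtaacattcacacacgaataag
Kcna6: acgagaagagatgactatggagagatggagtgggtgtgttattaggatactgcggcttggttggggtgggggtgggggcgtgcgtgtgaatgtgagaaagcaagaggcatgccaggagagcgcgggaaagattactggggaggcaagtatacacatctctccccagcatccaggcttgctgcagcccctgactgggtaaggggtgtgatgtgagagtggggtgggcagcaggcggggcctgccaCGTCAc
Kcnk13: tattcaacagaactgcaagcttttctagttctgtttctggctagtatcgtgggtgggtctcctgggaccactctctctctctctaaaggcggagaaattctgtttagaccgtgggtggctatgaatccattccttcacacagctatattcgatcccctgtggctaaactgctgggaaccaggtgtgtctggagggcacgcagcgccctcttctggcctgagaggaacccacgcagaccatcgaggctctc
Over windows of 300 bases that also hold the first 50 after the start, 13 of the 50 members (26%) had the core, against 20.8% of 32851 promoters. The full CRE, TGACGTCA, was in 0 members and in 1.79% of promoters, and the AP-1 motif TGANTCA was in 1 member (2.0%) and 7.81% of promoters. A match describes letters only.

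In SS libraries alone the D2 and D1 nuclei appeared further apart, and this rested on D1 SS replicate 1. With it, 36 of 72 members had an unadjusted p under 0.05, against 27.9% of all genes, and none passed the adjusted threshold, which 0.0467% of all genes did. The 5 smallest p-values were those of Kcnc2 (-0.67 ± 0.18), Kcna6 (-0.80 ± 0.22), Kcnk9 (-0.68 ± 0.19), Kcnv1 (-0.94 ± 0.26) and Kcnma1 (-0.92 ± 0.27), with an adjusted p of 0.0984 each in edgeR. Without that library the 5 values became -0.18, -0.19, -0.11, -0.32 and -0.12, and 2 members against 3.57% of all genes had an unadjusted p under 0.05. DESeq2 with all libraries called 33 members, all lower in D2, against 23.2% of all genes, and edgeR with DESeq2's size factors called 34, against 19.2%.

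The treatment comparison with the most small p-values was repeated morphine against repeated saline in D2 nuclei, both with a saline challenge (MS against SS). No member passed with edgeR without a replicate block: 0 of 71 members and 0.0% of 41125 genes had an adjusted p under 0.05. At an unadjusted p under 0.05, 34 of 71 members (47.9%) and 32.0% of all genes were counted. Members at 2 times background or more were mostly higher in MS (23 of 26, median log2 difference 0.45), and members under it mostly lower (15 of 45 higher, median -0.08). The other protein-coding genes divided the same way, with 90.4% higher and a median of 0.38 at 2 times background or more, and 37.7% higher with a median of -0.07 under it. DESeq2 called 20 members, 17 higher and 3 lower, against 16.6% of all genes.

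By family, Kv1 genes had the largest median difference among families of 3 or more members. Of 8 Kv1 genes, 6 were higher in D2 MS, 7 had an unadjusted p under 0.05 and the median was 0.59. Kv7 genes were higher in 4 of 5 cases with a median of 0.45, of which 3 had such a p. K2P genes were higher in 4 of 14 cases with a median of -0.09. With the background covariate the Kv1 median was 0.28 and the Kv7 median 0.05, and over all members 12 of 71 had an unadjusted p under 0.05, against 13.7% of all genes. The mean background share was 67.0% in D2 SS and 57.0% in D2 MS.

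**Figure D5:**
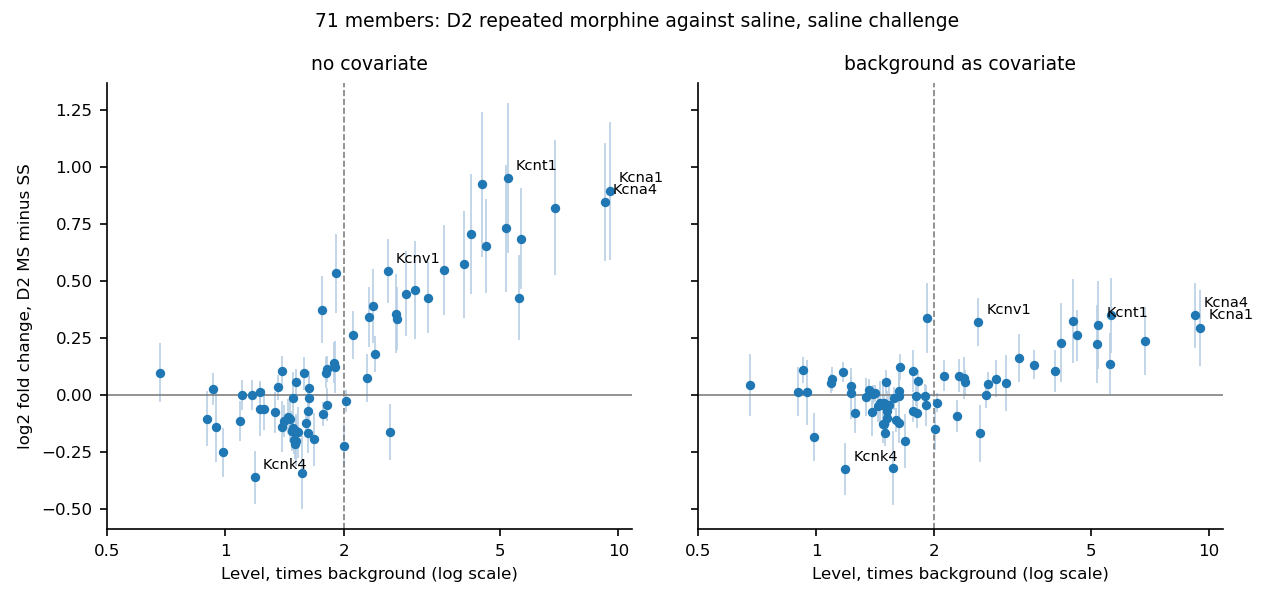
Log2 difference of D2 MS against D2 SS for 71 members against their level in times background (log axis), without a covariate (left) and with the log2 background density as a covariate (right). Bars are standard errors and the dashed line marks 2 times background. On the left the difference grows with the level, up to 0.95 for Kcnt1; on the right Kcna1 and Kcna4 lie at 0.29 and 0.35.

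The 5 members with the smallest p in this comparison were Kcnv1, Kcng2, Kcnu1, Kcna4 and Kcnk4, each with an adjusted p of 0.0713 in edgeR, so none passed. Kcnv1 encodes a silent subunit that alters Kv2 channels. Its TMM-scaled level in D2 SS ran from 7.38 over a median of 8.06 to 10.1 CPM, and in D2 MS from 8.03 over 11.8 to 17.3 CPM. In 6 of 8 MS libraries it exceeded every SS library, and the log2 difference was 0.54 ± 0.14. Kcna4 ran from 18.2 over 27.9 to 35.5 CPM in SS and from 30.0 over 44.3 to 84.7 CPM in MS, with a log2 difference of 0.85 ± 0.26. All 8 MS libraries lay above the SS median and 6 above the highest SS library.

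The other 3 were lower. Kcng2, a silent subunit gene, ran from 49.6 over 51.7 to 56.8 CPM in SS and from 38.4 over 47.1 to 53.3 CPM in MS, with 7 of 8 MS libraries below the lowest SS library and a log2 difference of -0.22 ± 0.07. Kcnu1 ran from 59.7 over 63.2 to 65.8 CPM in SS and from 48.7 over 56.3 to 64.5 CPM in MS, with a difference of -0.20 ± 0.06. Both genes lie near the background, at 1.5 and 1.49 times. Kcnk4, which encodes the TREK relative TRAAK, had medians of 6.91 CPM in SS and 5.13 CPM in MS, with a difference of -0.36 ± 0.12. With the background covariate these 5 differences were 0.32, -0.17, -0.13, 0.35 and -0.33, with edgeR adjusted p from 0.292 to 0.316.

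Summed markers of other cells had lower ranges in D2 MS than in D2 SS. Astrocyte markers summed to 175 to 213 CPM in D2 SS and 116 to 190 CPM in D2 MS, and interneuron markers to 286 to 342 and 197 to 323 CPM. Microglia markers summed to 164 to 192 CPM in SS and 123 to 177 CPM in MS, endothelial markers to 359 to 430 and 243 to 390, oligodendrocyte markers to 173 to 206 and 155 to 196, and cortical markers to 373 to 438 and 275 to 411. Markers of the D2 class itself summed to 1669 to 2367 CPM in SS and 1862 to 3807 CPM in MS. Of other cells' markers, only Sst (12.7 times), Npy (2.04), Aldoc and Mbp had a median of 2 times background or more over 61 libraries. None was at 0 over a group. The part of background and of cell content in the members' differences was not tested beyond the covariate fit.

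On the background-subtracted scale the Kv1 genes Kcna4 and Kcna1 also had higher means in D2 MS than in D2 SS. Kcna4 was 9.86 ± 1.70 CPM per kb in SS (SD, n = 7) and 12.7 ± 1.5 in MS (SD, n = 8). Kcna1 was 9.67 ± 1.5 in SS and 12.7 ± 2.45 in MS. These gaps exceeded 1 SD of either group. They did not simply follow repeated morphine. The D2 medians of Kcna1 were 9.95 in SS, 11.7 in SM, 12.9 in MS and 11.5 in MM. Those of Kcna4 were 9.91, 10.4, 12.6 and 11.6 in that order. For both genes SM, with a saline history, thus lay above SS, and MM lay below MS. Between D2 SS and MS, Kcng2 lay the other way on this scale, with means of 0.916 ± 0.178 and 0.518 ± 0.242. Kcnu1 did so with 0.811 ± 0.126 and 0.453 ± 0.187. In times background the medians lay closer, at 1.59 in SS and 1.46 in MS for Kcng2. For Kcnu1 they were 1.497 and 1.43. So near the background, the remainder after subtraction can vary with the background share, and its part in these gaps was not tested. None of these genes passed the test across all genes.

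The remaining D2 comparisons held fewer small p-values. All of them had 0.0% of genes past the adjusted threshold in edgeR, DESeq2 called 0 members in them, and the members named here are those with the 5 smallest p-values, none of which passed. After a morphine challenge in saline-treated mice (SM against SS) 0 of 71 members and 3.24% of genes had an unadjusted p under 0.05. The leading log2 differences were those of Kcnk4 (-0.23), Kcnk5 (0.14), Kcnk7 (-0.23), Kcnc2 (0.12) and Kcng2 (-0.10). The 26 higher members had a median of 0.01, against 0.03 for the other genes of that level.

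With morphine both times (MM against SS), 6 of 71 D2 members and 13.3% of genes had an unadjusted p under 0.05. The M-channel genes Kcnq5 (0.55 ± 0.22) and Kcnq3 (0.45) and the silent subunit gene Kcnv1 (0.32) had higher values in MM, and Kcnc4 (-0.25 ± 0.09) and the K2P gene Kcnk12 (-0.19) lower ones. The adjusted p in edgeR was 0.362 or more. Against SM, MM gave 6 members and 7.73%. The values were -0.25 ± 0.08 for Kcnk5, 0.68 ± 0.22 for Kcnq5, 0.54 ± 0.19 for Kcnq3, -0.22 for Kcnc4 and 0.34 for Kcnab1, which encodes a Kv1 beta subunit. These comparisons share the MM libraries.

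MM against MS in D2 nuclei, the response to morphine after a morphine history, gave 1 member and 3.76% of genes. The silent subunit genes Kcns2 (-0.36 ± 0.16) and Kcnf1 (-0.37) led it together with Kcnh2 (-0.21), Kcna3 (-0.33) and Kcnk1 (-0.15), all lower in MM. The interaction of history with challenge gave 3 members and 3.56%, led by Kcnk5 (-0.28), Kcnk4 (0.43), Kcna5 (-0.68), Kcnu1 (0.17) and Kcnv1 (-0.38).

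In D1 nuclei no comparison called a member either, with 0.0% of 41083 genes past the adjusted threshold in edgeR and 0 members by DESeq2. The morphine challenge after saline (SM against SS) gave 5 of 72 members and 1.87% of genes an unadjusted p under 0.05, repeated morphine (MS against SS) 11 and 2.68%, and MM against SS 1 and 1.92%. Against SS, the 26 higher members had medians of -0.46, -0.51 and -0.20 in SM, MS and MM. These directions turned when D1 SS replicate 1 was left out, to 0.16, 0.03 and 0.40, with 24, 19 and 25 of the 26 members higher. Without that library the members with an unadjusted p under 0.05 were 0, 0 and 2, against 1.28%, 1.1% and 5.68% of genes. Leaving out D1 MS replicate 2 as well put the MS median at -0.12, with 2 of 26 higher.

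The members with the smallest p in these D1 comparisons also rested on that library. In SM against SS they were the Kv3 genes Kcnc2 (-0.57 ± 0.22) and Kcnc4 (-0.42), Kcnh7 (-0.55), Kcnk9 (-0.52) and Kcna6 (-0.56), with an edgeR adjusted p of 0.955. Without D1 SS replicate 1 the same genes had -0.08, -0.09, -0.06, 0.05 and 0.05. In MS against SS they were Kcnk9 (-0.60 ± 0.24), the BK genes Kcnma1 (-0.76 ± 0.32) and Kcnmb4 (-0.39), Kcnc2 (-0.49) and Kcnh7 (-0.50), with an edgeR adjusted p of 0.824. Without that library they had -0.03, 0.02, -0.06, -0.00 and -0.01, so no gap of that size was left. In MM against SS the values of Kcnc2, Kcnh7, Kcnt2, Kcnk9 and Kcnc4 ran from -0.50 to -0.29 with it and from -0.07 to 0.13 without it.

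The other D1 comparisons also varied with single libraries. In MM against MS, 0 members and 2.29% of genes had an unadjusted p under 0.05. When D1 SS replicate 1 was left out, which is in neither group but enters the shared spread, these were 5 members and 4.92%, and without D1 MS replicate 2 as well 29 members and 18.5%. None passed the adjusted threshold in these fits. The 26 higher members had a median of 0.32 with all libraries, 0.33 and 0.47 in these 2 fits, and 0.13 with the background covariate. In MM against SM it was 0 members and 1.34%, with medians of 0.22 and 0.22. The silent subunit gene Kcng1 led the first with 0.42 ± 0.21, followed by Kcnk7 (0.32), the beta subunit gene Kcnab3 (0.42), Kcnh2 (0.25) and Kcna2 (0.51). The second was led by Kcnab3 (0.34), Kcng1 (0.28), Kcnh2 (0.22), Kcnf1 (0.38) and Kcna3 (0.34). Kcng1, Kcnab3 and Kcnh2 stood in both, and the comparisons share the MM libraries. The interaction of history with challenge, which uses SS, gave 3 members and 2.32%, led by Kcnab3 (0.78 ± 0.31), Kcng1 (0.70), Kcnma1 (0.94), Kcna6 (0.77) and Kcnc1 (1.2). Its median over the 26 members was 0.75 with D1 SS replicate 1 and 0.16 without it, where 1 member and 1.53% of genes had an unadjusted p under 0.05.

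Whether treatment differences themselves differed between D2 and D1 nuclei was tested in a joint fit, which called 0 members and 0.0% of 42870 genes in each of 4 such comparisons with edgeR. For MS against SS, 34 members and 24.7% of genes had an unadjusted p under 0.05. The BK gene Kcnma1 led it with a log2 difference of 1.14 ± 0.37, followed by Kcna2 with 1.36 ± 0.45, Kcnv1 with 1.07 ± 0.36 and Kcnt1 with 1.78 ± 0.60, each with an adjusted p of 0.149. Without D1 SS replicate 1 the values were 0.33, 0.62, 0.46 and 0.93, and 3 members against 5.97% of genes had an unadjusted p under 0.05. With D1 MS replicate 2 left out as well these were 18 members and 18.3%. DESeq2 with all libraries called 23 members, against 14.4% of genes. For SM against SS the counts were 5 members and 2.46%, led by Kcnc2 (0.70 ± 0.25), Kcnh7 (0.61), Kcnt2 (0.37), Kcnk9 (0.56) and Kcnk7 (-0.43). For MM against SS they were 5 and 6.74%, led by Kcnc2 (0.59), Kcnq3 (0.94), Kcnh7 (0.55), Kcnt2 (0.36) and Kcnh5 (0.23). MM against MS, which uses no SS library, gave 2 and 3.56%, led by Kcnab3 (-0.60), Kcnh2 (-0.47), Kcng1 (-0.51), Kcna2 (-0.89) and Kcns1 (-0.30), none of which passed. Without D1 SS replicate 1 the counts were 1 member and 2.32% for SM against SS, 3 and 4.82% for MM against SS, and 6 and 7.7% for MM against MS. The last became 30 and 21.5% without D1 MS replicate 2 as well. The median of the 26 higher members in SM against SS was 0.48 with all libraries and -0.10 without D1 SS replicate 1, and in MM against SS it was 0.58 and -0.06, so these directions turned as well.

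Known partners of the subunits were examined as a list. Of 20 genes of the same complexes, among them ankyrin-G (Ank3) and the Kv2 partner Amigo1, 12 reached 2 times background and their median was 2.46. Amigo1 and Ank3 stood at 5.43 and 3.23 times. With edgeR, TMM scaling and no replicate block, none of the 20 passed in any comparison. In D2 MS against SS, 16 of 20 were higher with a median of 0.40, or 0.12 with the background covariate, and DESeq2 called 14 of them. In D2 against D1 nuclei over all treatments, 2 of 20 were higher with a median of -0.21, which was -0.10 without D1 SS replicate 1 and -0.01 with the covariate. In SS alone DESeq2 called 16 of the partners, and edgeR with DESeq2's size factors 15. For the difference of MS against SS between the cell types DESeq2 called 15. The shares of all genes called in these same fits are given above for each comparison. The partner counts were not compared with other genes of the partners' levels.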

How the data were processed

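The authors deposited raw counts per gene, made with featureCounts on mm10, and used DESeq2, per the submitters' processing notes. The sources used here do not give versions, aligner, annotation release or strand setting, so genes that overlap another (33 members) are uncertain. The FPKM values the authors deposited served only to recover gene lengths, which equalled the whole gene span for 54281 of 54281 identifiers (relative tolerance 1e-06). Symbols and mm10 coordinates came from a gene annotation; 68 members matched with their identifier's version and 4 without it.

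Counts of the 61 libraries were fitted with edgeR 4.0.16 in R 4.3.3: robust glmQLFit and glmQLFTest (two-sided) after TMM scaling and a filterByExpr filter, with Benjamini-Hochberg adjustment over all genes tested and calls at an adjusted p under 0.05. D1 libraries, D2 libraries and all libraries were fitted separately (41083, 41125 and 42870 genes). The common biological coefficient of variation was 0.280, 0.154 and 0.231. The fit was also run on simulated data. These used the common coefficient of variation of each fit, with no varying background and no outlying library. How the fit handles those features was not tested by that run. Alternatives were DESeq2 1.42.0, DESeq2's size factors, no filter, a replicate block, the log2 background density as a covariate, and leaving out D1 SS replicate 1. Leaving out D1 MS replicate 2 as well, and the covariate without D1 SS replicate 1, were added after seeing the data. No library pair agreed within sampling noise.

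Named genes were the 2 highest members of each family, the 10 highest of all by count per kilobase, and per comparison the called members or else the 5 smallest p-values; a few items are not reported here. The members and lists were chosen with earlier results of these data known. RefSeq promoters were matched by symbol.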

Additional observations from a re-analysis of the deposited data

Results flagged for a closer look

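For 13 members, each library was set against its group. The highest or lowest library lay far from the rest in 23 of 104 tests, where chance gives about 1 in 20. The members share their libraries, so these tests are not independent. Values are TMM-scaled CPM. D1 SS replicate 1 was the highest of its group for Kcnk2 (262), Kcna4 (210), Kcna2 (175), Kcna1 (180.0), Kcna6 (135), Kcnc2 (492.97), Kcnk13 (150.2), Kcnma1 (5313), Kcnv1 (56.9) and Kcnk9 (198), and the lowest for Kcnu1 (23.7) and Kcng2 (27.2). D1 MS replicate 2 was the highest for Kcna4 (90.2), Kcna2 (56.1), Kcna1 (78.6) and Kcnv1 (17.6), and the lowest for Kcnu1 (51.6) and Kcng2 (43.0). D1 SM replicate 2 was the highest for Kcnk2 (183) and Kcnma1 (1316). Single values came from D1 MS replicate 6 for Kcnc2 (149), D1 SM replicate 7 for Kcng2 (55.5) and D2 MM replicate 1 for Kcng2 (43.5). Over all 72 members, D1 SS replicate 1 stood apart 52 times, D1 MS replicate 2 31 times and the next library 4 times. No share over all genes is given beside these counts.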

How the results depend on the processing

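The count of members past the adjusted threshold, 0 in each of 18 comparisons, stayed 0 in 116 alternative counts and rose in 10. For D2 MS against SS it was 20 with DESeq2 and 22 with the replicate block. For D2 against D1 averaged it was 2 with DESeq2, 3 with the background covariate, 4 without D1 SS replicate 1, 3 without D1 SS replicate 1 and D1 MS replicate 2, and 5 with the covariate and without D1 SS replicate 1. For D2 against D1 in SS it was 33 with DESeq2 and 34 with DESeq2's size factors, and for the difference of MS against SS it was 23 with DESeq2. The cause was not tested.

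Of the log2 differences of single members, 30 changed sign, all in comparisons that use D1 SS. In D1 SM against SS, Kcnk9 became 0.0534 with DESeq2, 0.0541 without D1 SS replicate 1, 0.0594 without that library and D1 MS replicate 2, and 0.0208 with the covariate and without D1 SS replicate 1; Kcna6 became 0.0438, 0.0518 and 0.0582 in the first 3 of these. In D1 MM against SS, in the same order, Kcnh7 became 0.0260, 0.0219, 0.0111 and 0.0796, Kcnk9 0.135, 0.134, 0.123 and 0.0712, and Kcnc4 0.0467, 0.0429, 0.0320 and 0.0399. With the covariate and without D1 SS replicate 1, Kcnc2 there became 0.0174 and Kcnt2 0.0228. In D1 MS against SS, Kcnma1 became 0.0111 with DESeq2 and lay between -0.0586 and 0.0215 without the 1 or both libraries, Kcnc2 between -0.00414 and 0.0179, and Kcnh7 between -0.00544 and 0.0253; with the covariate and without D1 SS replicate 1 the latter became 0.000127 for Kcnc2 and 0.00193 for Kcnh7. In the difference of SM against SS between D2 and D1, Kcnk9 became -0.0248 with DESeq2 and -0.0172 without the 1 or both libraries.

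Same-numbered replicates did not deviate together: their mean correlation was -0.022 over 45 pairs in D1 (17 over 0.1) and 0.035 over 42 pairs in D2 (19 over 0.1), and 6 of 32 and 5 of 29 libraries correlated best with their own number. The numbers were therefore not taken as pairing; the replicate block raised the count in D2 MS against SS to 22 of 71 members, 17 of them higher, against 20.9% of all genes, and called 13 of the 20 partners. Depth is limiting for Kcne1l, with 7.43 counts per library.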
